A study of Meloidogyne incognita with 6 samples.

Results

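In Meloidogyne incognita, the southern root-knot nematode, 112 transcripts stood at least 4-fold higher in middle than in early second-stage juveniles (J2). The second-stage juvenile is the infective form of this plant parasite. It hatches from the egg, moves through soil, enters a root and migrates to the site where it will feed. It does so without feeding on the way, and its oesophageal glands and body surface secrete proteins that act on the root, a repertoire that is known to change as parasitism proceeds.

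RNA of wild-type J2 was sequenced, with 3 libraries from an early stage (early replicates 1 to 3) and 3 from a middle stage (middle replicates 1 to 3). The labels give no treatment, do not say how the stages were told apart, and name no separate cultures, so the spread between replicates may be technical. Levels are FPKM as deposited, which scales fragments to model length and to the reads counted. The FPKM denominators were 5305983 to 7436406 reads per library. At these depths a single read in a model of 1 kilobase was worth 0.134 to 0.188 FPKM. The upper limit behind a value of 0 is 3 reads, which would give 0.403 to 0.565 FPKM in such a model.

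Members were chosen by their values, from the 18433 of 20365 gene rows whose ID has no final lower-case letter. The mean middle level plus 1 FPKM had to be at least 4 times the mean early level plus 1 FPKM, and the lowest middle library had to lie above the highest early library. The ratio alone was met by 121 rows (0.656%), the order of the libraries alone by 2519 rows (13.7%), and both by the 112 members (0.608%). The mirrored rule, applied to falls, was met by 126 rows. Because the early and middle values chose the members, the rises below are descriptions and not tests. The IDs are paired here with no gene names, so neither the members' roles nor the labelled tissue could be checked against known genes, and no sequences are shown. In whole animals, fewer cells of a type and less RNA per cell cannot be told apart.

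Few of these transcripts were off in early J2, so the description "switched on" holds for a minority. By early mean, 28 members lay under 1 FPKM, 42 between 1 and 10 FPKM, 36 between 10 and 100 FPKM and 6 at 100 FPKM or above. All 3 early libraries had reads for 88 members, 18 were listed at 0 in 1 or 2 early libraries, and 6 were listed at 0 in all 3. In middle J2, 13 members lay under 10 FPKM, 63 between 10 and 100 FPKM, 30 between 100 and 1000 FPKM and 6 above that.

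**Figure D1:**
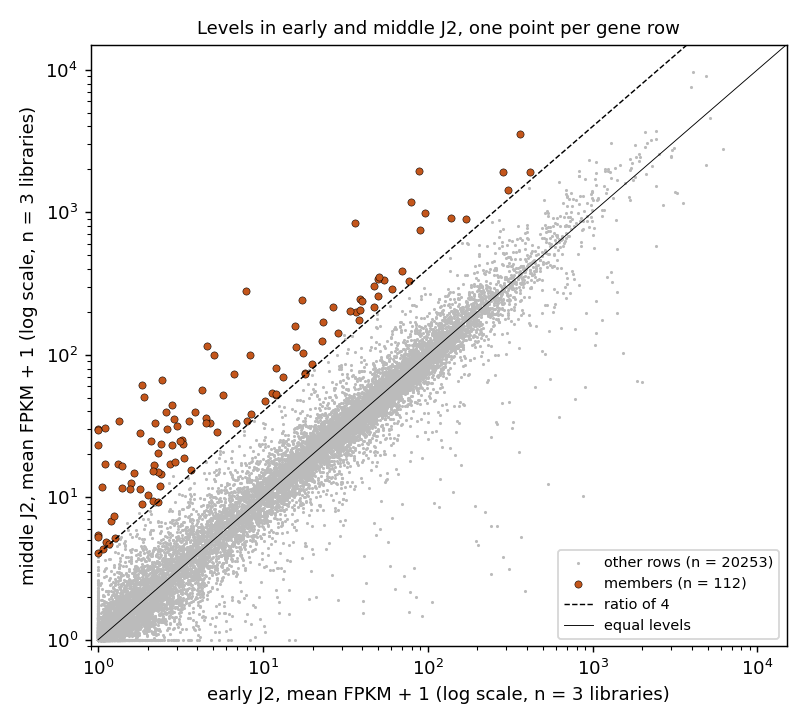
Mean level in early J2 (x axis, FPKM + 1, log scale) against mean level in middle J2 (y axis, FPKM + 1, log scale) for every gene row, with the 112 members in orange and the other rows in grey. The members run along the dashed ratio of 4 from rows listed at 0 in early J2 up to an early mean of 418 FPKM.

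The median member went from 3.39 FPKM in the early to 38.2 FPKM in the middle mean, and these medians are taken over members separately. The ratio of the means, each plus 1 FPKM, had a median of 6.85 and a range of 4.03 to 35.5. Its size differed with the early level. Its median was 8.15 for the 28 members under 1 FPKM and 7.95 for the 42 between 1 and 10 FPKM. It was 5.90 for the 36 between 10 and 100 FPKM and 5.93 for the 6 at 100 FPKM or above. The early mean is part of both the ratio and the rule, so this order is partly built in. On the log2(FPKM + 1) scale the median change was 2.79, against -0.01 over all 13142 rows that averaged 1 FPKM or more. In the limma fit over those rows, all 112 members were called higher (Benjamini-Hochberg adjusted p under 0.05), and 1225 of all rows tested (9.32%) were. Nothing is read from the members' count, since the rule used the same contrast. The count over all rows fell to 757 without early replicate 1, 790 without early replicate 3 and 671 without middle replicate 1.

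As a share of the FPKM sum, the members held 0.438%, 0.242% and 0.384% in early replicates 1 to 3, and 2.73%, 2.65% and 2.37% in middle replicates 1 to 3. Stage means (± SD, n = 3) were 0.355 ± 0.102% for early and 2.58 ± 0.189% for middle libraries. The 5 members of highest middle level alone made up 1.11% to 1.17% of each middle library. Without those 5 the shares were 0.192 ± 0.0369% and 1.44 ± 0.182% (SD, n = 3).

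**Figure D2:**
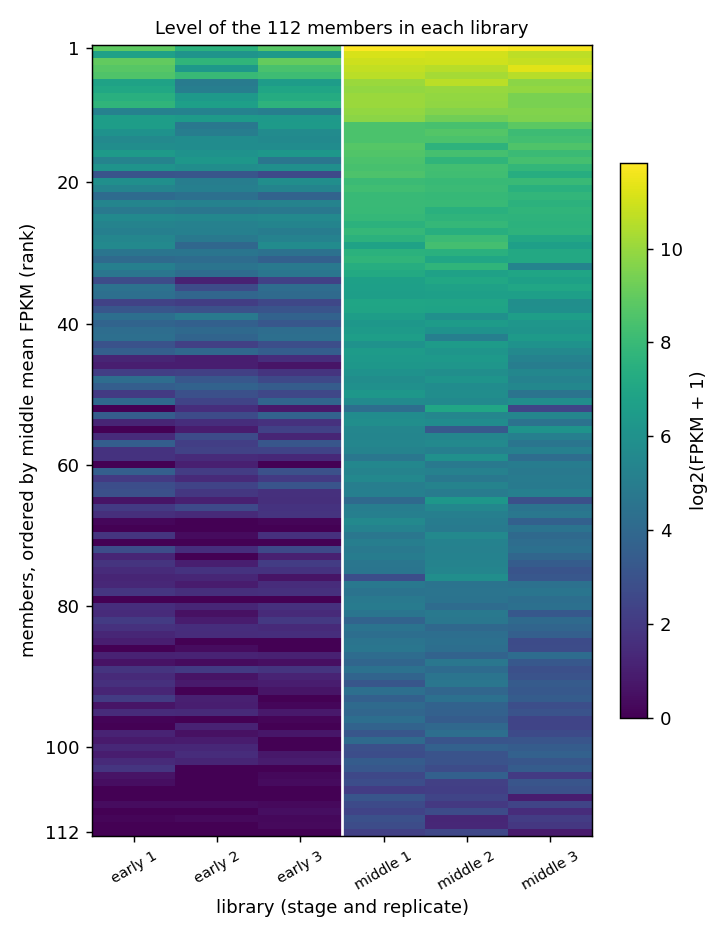
Level of each of the 112 members (rows, ordered by middle mean) in each of the 6 libraries (columns), coloured by log2(FPKM + 1), with a white line between the stages. The upper rows are already visible in the early libraries, and the lowest rows are near 0 there.

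The most abundant members joined the upper end of the middle transcriptome. By mean middle level 6 members were among the 100 highest rows of the table, and by mean early level none was. Minc17642 was the highest. Its level was 473, 188 and 427 FPKM in early replicates 1 to 3, and 3656, 3637 and 3256 FPKM in middle replicates 1 to 3, so that it moved from rank 346 to rank 7 of all rows. The middle libraries lay close together, with a coefficient of variation of 6.42%, whereas early replicate 2 stood well under the other early libraries.

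Minc07410 was at 110, 68.2 and 83.6 FPKM in early and at 2202, 2064 and 1594 FPKM in middle replicates 1 to 3. It had the steepest rise among the 6, from rank 2306 to rank 36. Both Minc17642 and Minc07410 are short gene models, with recovered lengths of 153 and 156 bases. They rested on 9635 and 5440 reads over the middle libraries.

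Minc05758 was at 516, 212 and 525 FPKM in early and at 1950, 1999 and 1762 FPKM in middle replicates 1 to 3. It had the highest early mean of all members, 418 ± 178 FPKM (SD, n = 3), and is the clearest case of a transcript that was abundant before the rise. Minc03287 was at 440, 77.5 and 341 FPKM in early and at 1714, 1490 and 2494 FPKM in middle replicates 1 to 3. It carried the most reads of any member, 47940 over the middle libraries, and its early values differed widely between replicates 1 and 2.

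Minc03619 was at 386, 248 and 283 FPKM in early and at 1551, 1209 and 1502 FPKM in middle replicates 1 to 3. Minc12947 was at 114, 29.5 and 91.1 FPKM in early and at 1068, 1560 and 883 FPKM in middle replicates 1 to 3. Early replicate 2 was the lowest library for all 6 of these abundant members.

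The 6 largest ratios belonged to members under 10 FPKM in the early mean, 5 of them under 2 FPKM, and in all 6 middle replicate 3 was the lowest middle library. Minc00222 led with a ratio of 35.5. It was at 7.33, 8.13 and 5.21 FPKM in early and at 373, 299 and 165 FPKM in middle replicates 1 to 3. Read counts scaled by depth gave a middle-to-early ratio of 40.9 (exact 95% binomial interval 34.7 to 48.6, counting error only).

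Minc08325 was at 0.970, 0.993 and 0.602 FPKM in early and at 75.8, 74.2 and 31.2 FPKM in middle replicates 1 to 3. Minc09611 was at 1.36, 0.993 and 1.96 FPKM in early and at 81.0, 79.99 and 36.9 FPKM in middle replicates 1 to 3. These rows had nearly the same middle values and the same recovered length, 893 bases. How the authors' counting treated reads with several matches is not given in the sources used here, so near-identical copies could share reads, which was not tested.

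Minc02543 was at 0.163, 0 and 0.126 FPKM in early and at 46.2, 30.8 and 11.6 FPKM in middle replicates 1 to 3. With 4 early and 1098 middle reads its depth-scaled ratio was 289, with a wide counting interval of 112 to 1061. On the scale of the rule, which adds 1 FPKM to both means, the same row had a ratio of 27.8. The added 1 FPKM therefore sets the order of the ratios among members with low early levels.

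**Figure D3:**
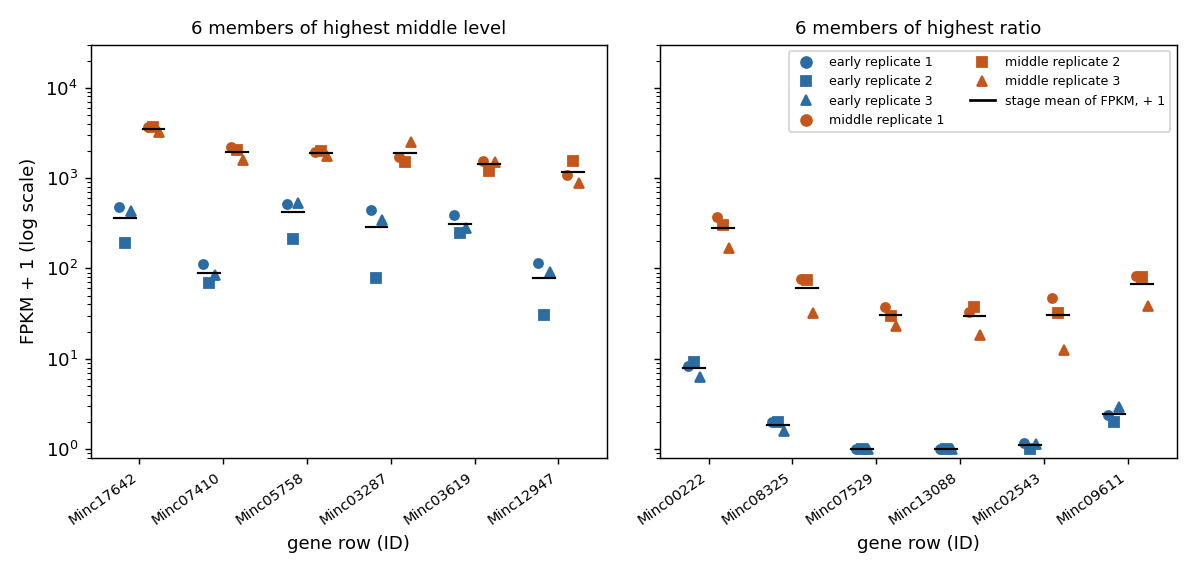
FPKM + 1 (log scale) in each library for the 6 members of highest middle level (left) and the 6 of highest ratio (right), with early libraries in blue, middle libraries in orange, a marker shape per replicate and a bar at the stage mean. Early replicate 2 (blue squares) is the lowest early library in all 6 rows on the left, and middle replicate 3 (orange triangles) the lowest middle library in all 6 rows on the right.

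No read fell on 6 members in any early library. Minc07529 was at 36.8, 28.7 and 22.0 FPKM in middle replicates 1 to 3, on 389 reads. Set against the limit of 3 reads for a count of 0 over the 3 early libraries together, it was 136-fold higher in middle J2. Such a fold is a bound on the early side only and takes the middle reads as exact. Minc13088 was at 32.2, 36.7 and 17.5 FPKM, on 121 reads, and was 42.4-fold higher by the same bound. Minc07528, the ID just before Minc07529, was at 26.9, 21.9 and 18.2 FPKM on only 25 reads, and was 8.76-fold higher by that bound. The other members without an early read had bounds between 3.85-fold (11 middle reads) and 32.2-fold (92 middle reads). With so few middle reads the true fold may be lower than the bound. The limit of 3 reads also covers counting error alone.

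Minc04314 came next by early level, with 3 early and 474 middle reads. It was at 0.0687, 0 and 0.107 FPKM in early and at 18.2, 9.98 and 4.30 FPKM in middle replicates 1 to 3. Its depth-scaled read ratio was 166 (95% counting interval 56.5 to 808). In all, 33 members had fewer than 10 reads over the early libraries together, and for these the early level is set by few reads.

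At the edge of the rule, just inside lay Minc06304, Minc02478 and Minc00604, with ratios of 4.03, 4.03 and 4.06 and middle means of 8.30, 3.72 and 3.36 FPKM. Just outside, among rows whose stages did not overlap, lay Minc01902, Minc09880 and Minc16424, with ratios of 3.97, 3.94 and 3.93. Minc09880 was far more abundant than the members just inside, at 48.0 FPKM in the early and 192 FPKM in the middle mean. Minc16424 was at 40.8, 13.7 and 46.1 FPKM in early replicates 1 to 3, the same low early replicate 2 as in the abundant members.

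The members also differed among the replicates of a stage. For each row and library, log2(FPKM + 1) was set against that of the mean of the other libraries of the stage. In early replicate 2 the median difference over members was -0.21, against 0.05 over the other rows tested and -0.22 over the 126 rows that met the mirrored rule. In rows chosen without early replicate 2, the median difference in that library was 0.02. In early replicate 1 it was 0.15, against -0.05, and in early replicate 3 it was 0.00 in both the members and the other rows. Early replicate 2 was the lowest early library for 60 of the 112 members, early replicate 1 for 22 and early replicate 3 for 30. The rule used these values, and the same counts over all rows tested were not worked out.

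The low values of early replicate 2 were marked in the members with substantial early expression. Of the 42 members at 10 FPKM or above in the early mean, 11 were at least 2-fold lower in early replicate 2 than the mean of the other early libraries. The same held for 0.597% of all rows tested at that level. Of the 126 rows that met the mirrored rule, 103 reached that level, and 10 of them were at least 2-fold lower in early replicate 2 and 7 at least 2-fold higher. The comparison was made after the values were seen. A low early library also lowers the early mean that the rule uses, so it is a description.

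The 11 members, named after their values were seen, were Minc03287, Minc18739, Minc09177, Minc12947, Minc17268, Minc03214, Minc13334, Minc05758, Minc17642, Minc04924 and Minc04925. Their median level was 95.6 FPKM in the early and 914 FPKM in the middle mean. Minc18739 was at 132, 32.5 and 122 FPKM in early and at 953, 1036 and 970 FPKM in middle replicates 1 to 3, so its early libraries differed widely while its middle libraries nearly coincided. Minc09177 was at 95.7, 25.8 and 86.1 FPKM in early and at 360, 330 and 463 FPKM in middle replicates 1 to 3. The 11 members had a median difference of -1.61 in early replicate 2 and of only -0.16 in middle replicate 3.

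Middle replicate 3 stood apart in another group of members. Its median difference over all 112 members was -0.42, against 0.01 over the other rows tested. It was the lowest middle library for 71 members, middle replicate 1 for 11 and middle replicate 2 for 30. The same counts over all rows tested were not worked out, so these are descriptions. Of the 99 members at 10 FPKM or above in the middle mean, 28 were at least 2-fold lower in middle replicate 3 than in the mean of the other middle libraries. The same held for 1.4% of all rows tested at that level. These 28 were mostly members of modest level, with medians of 1.25 FPKM in the early and 28.2 FPKM in the middle mean. Only Minc17268 belonged both to them and to the 11 members with low values in early replicate 2.

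In the rows that met the mirrored rule the order was turned, as middle replicate 3 had a median difference of 0.41. In 13 of the 45 such rows at 10 FPKM or above in the middle mean it was at least 2-fold higher. Middle replicate 2 had a median difference of -0.26 in the mirrored rows and was at least 2-fold lower in 12 of the 45. Each difference is taken against the other middle libraries, so these departures depend on each other. In the median, middle replicate 3 thus lay nearer to the early level both in rows that rose and in rows that fell. Whether this library came from animals of another age, or differed in preparation, was not tested.

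In middle replicate 2, 13 members at 10 FPKM or above in the middle mean were at least 2-fold higher than in the mean of the other middle libraries, against 1.03% of all rows tested at that level. Of these 13, 12 were also among the 28 with low values in middle replicate 3. They include the 3 members with the widest spread between middle libraries. Minc02312 was at 18.5, 126 and 4.48 FPKM in middle replicates 1 to 3, a coefficient of variation of 134%. Minc07683 was at 5.91, 57.1 and 8.36 FPKM (121%), and Minc02313 at 15.3, 75.03 and 6.40 FPKM (116%). Their reads over the middle libraries numbered 173, 116 and 203. Without middle replicate 2 their log2 changes were smaller but still called by limma: 2.59 in place of 3.79 for Minc02312 (adjusted p = 0.0337), 1.97 in place of 2.92 for Minc07683 (0.00815) and 2.38 in place of 3.31 for Minc02313 (0.0123). Without some of the other libraries the calls were lost, although the changes stayed about as large. Minc02312 had log2 changes of 3.40, 4.18 and 3.80 without early replicates 1, 2 and 3 (adjusted p = 0.124, 0.0631 and 0.0995) and of 3.94 without middle replicate 1 (0.0958). Minc07683 had 3.02, 3.03 and 2.71 without early replicates 1, 2 and 3 (0.0789, 0.0667 and 0.0943). Minc02313 had 3.07 without early replicate 1 (0.0792), 3.29 without early replicate 2 (0.0598) and 3.49 without middle replicate 1 (0.0593).

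At the other end, some members were very even. Minc14048 was at 19.1, 14.1 and 16.3 FPKM in early and at 99.1, 101 and 103 FPKM in middle replicates 1 to 3, with a middle coefficient of variation of 1.93%. Minc08453, the longest model among the members with a recovered 7422 bases, was at 2.64, 2.06 and 2.08 FPKM in early and at 21.7, 22.3 and 23.3 FPKM in middle replicates 1 to 3. Minc16407 was at 59.4, 31.3 and 55.8 FPKM in early and at 271, 248 and 257 FPKM in middle replicates 1 to 3. Over all members the median coefficient of variation in middle J2 was 29.3%.

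**Figure D4:**
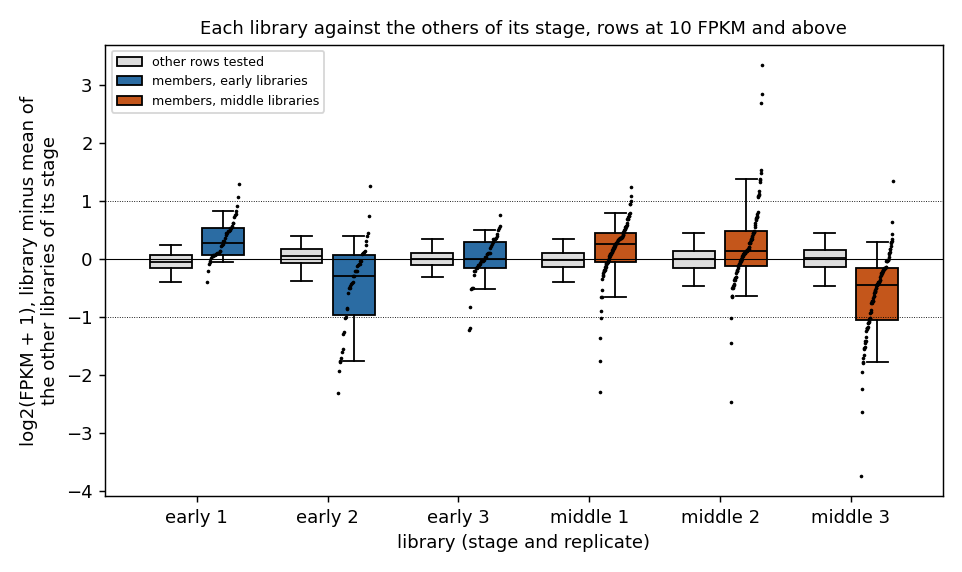
Difference in log2(FPKM + 1) between each library and the mean of the other libraries of its stage (y axis), for rows at 10 FPKM or above in the mean of that stage: grey boxes show the other rows tested, and coloured boxes with points the members (42 in early, 99 in middle libraries). Boxes span the quartiles with the median as a line, whiskers the 5th to 95th percentile, and dotted lines mark 2-fold. Members lie low in early replicate 2 and in middle replicate 3.

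The same within-stage patterns were looked at in rows chosen without the library in question. Applied to the 5 libraries without early replicate 2, the rule gave 132 rows, of which 41 were at 10 FPKM or above in the other early libraries. Of these, 8 were at least 2-fold lower in early replicate 2 (19.5%), against 0.559% of the other rows tested at that level. The corresponding numbers were 0 of 43 in early replicate 1, against 0.512% of the other rows, and 1 of 43 in early replicate 3 (2.33%, against 0.684%). Chosen without middle replicate 3, 141 rows met the rule, and 37 of 115 were at least 2-fold lower in that library (32.2%), against 1.21% of the other rows. They were 4 of 94 in middle replicate 1 (4.26%, against 0.429% of the other rows) and 7 of 98 in middle replicate 2 (7.14%, against 0.590%). Chosen without middle replicate 2, 8 of 98 rows were at least 2-fold higher in it, against 0.751% of the other rows.

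The rise was also read in libraries that had no part in the choice. With 1 early and 1 middle library set aside in each of the 9 possible ways, the rule picked 111 to 166 rows from the remaining 4. In the pair set aside, the median ratio of middle to early level, each plus 1 FPKM, was 3.89 to 7.36. Its median over the 9 pairs was 6.47. The middle library was the higher in 76.5% to 99.1% of the rows picked, and the ratio reached 4 in 47.4% to 81.1%. The same shares over all rows were not worked out for these pairs, so the values are a description. Most of the rows picked were members, 95 to 109 in each choice. The lowest median ratios, 3.89, 4.09 and 4.47, came with middle replicate 3 as the library set aside. The lowest share of rows in the right order came from the pair of early replicate 2 and middle replicate 3, with 127 of 166 rows.

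Gene models of members were shorter in the median than those of the table as a whole. Their median recovered length was 704 bases (quartiles 304.5 and 1218), against 939 bases (531 and 1539) over all rows tested. Models under 300 bases made up 27 of the 112 members (24.1%) and 9.67% of all rows tested. Short models were also common among the rows that met the mirrored rule, with 17.5% under 300 bases and a median of 639 bases. Short models collect fewer reads at a given FPKM, and the part of length in the members' choice was not tested.

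Many members carried neighbouring ID numbers. There were 12 runs of consecutive numbers, 11 of 2 members and 1 of 3, which together held 25 of the 112 members (22.3%). Of the rows that met the mirrored rule, 24 of 126 were in such runs (19.05%). The files do not say that consecutive IDs lie next to each other in the genome, and reads shared between similar copies could not be separated.

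The longest run was Minc06859, Minc06860 and Minc06861. Minc06859 was at 5.84, 1.89 and 5.01 FPKM in early and at 26.7, 36.1 and 19.8 FPKM in middle replicates 1 to 3. Minc06860 was at 1.63, 0.558 and 1.27 FPKM in early and at 13.04, 22.7 and 7.22 FPKM in middle replicates 1 to 3. Minc06861 was at 3.18, 0.869 and 2.97 FPKM in early and at 12.7, 25.2 and 15.9 FPKM in middle replicates 1 to 3. All 3 were lowest in early replicate 2 and highest in middle replicate 2, whereas the lowest middle library was replicate 3 for Minc06859 and Minc06860 and replicate 1 for Minc06861.

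Several of the pairs are named here after their values were seen. Minc04924 was at 211, 100 and 198 FPKM in early and at 1053, 941 and 703 FPKM in middle replicates 1 to 3. Its neighbour Minc04925 was at 176, 82.1 and 155 FPKM in early and at 1068, 978 and 698 FPKM in middle replicates 1 to 3. The pair thus followed each other in every library, with middle means that differed 1.02-fold.

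Minc17190 was at 122.5, 118 and 56.1 FPKM and Minc17191 at 56.6, 53.5 and 21.0 FPKM in middle replicates 1 to 3, both with low values in replicate 3. Minc02312 and Minc02313 shared the peak in middle replicate 2. Minc14134 and Minc14135 were close in level, at 200.1 and 216 FPKM in the middle mean, and both were highest in middle replicate 1. Over the 13 pairs of neighbouring members, both partners deviated to the same side in 12 pairs in middle replicate 3, in 12 in middle replicate 1 and in 10 in middle replicate 2. The same held for 11, 8 and 5 pairs in early replicates 1, 2 and 3. Minc07528 and Minc07529 had no reads in early J2, so this pair could not deviate to the same side there. The members as a whole lay low in middle replicate 3 and high in middle replicate 1, with a median difference of 0.25 in the latter. Those sides were therefore shared by most members. How often members without neighbouring IDs share a side was not worked out. The middle means of the partners were within 2-fold in 8 of the 13 pairs.

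Other pairs rose together from very different levels. Minc03286 was at 5.64, 1.17 and 3.87 FPKM in early and at 105, 133 and 104 FPKM in middle replicates 1 to 3, and the middle mean of its neighbour Minc03287 was 16.7 times higher. Minc05757, at 34.3 FPKM in the middle mean, lay next to Minc05758, which was 55.5 times higher. In each of these pairs the lower member had the larger ratio, 25.2 against 6.62 and 12.3 against 4.55.

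**Figure D5:**
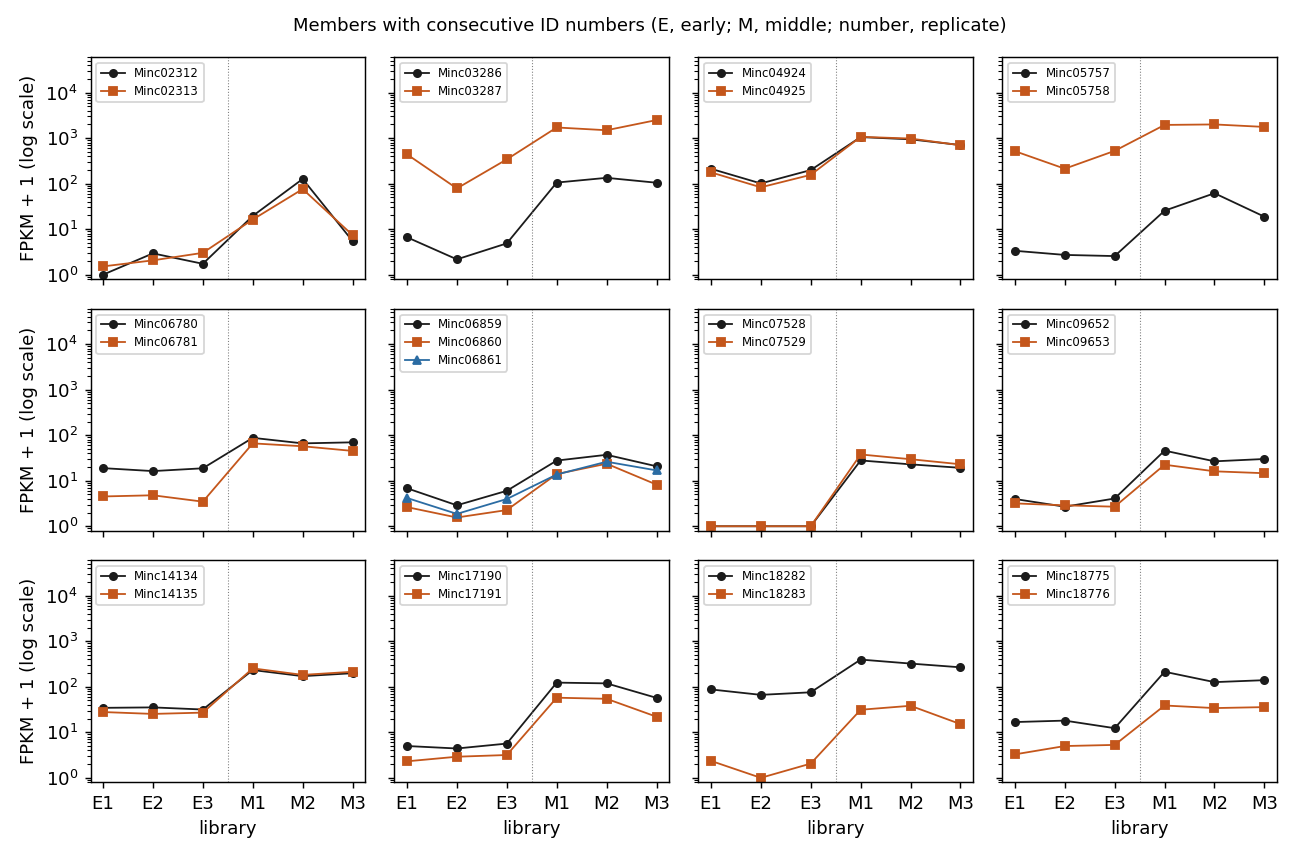
FPKM + 1 (log scale) in each library for the 12 runs of members with consecutive ID numbers, a panel per run. E and M stand for early and middle, the number for the replicate, and lines join the values of a row without implying an order of replicates. Minc04924 and Minc04925 nearly coincide, while Minc05757 and Minc05758 differ widely in level.

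Beyond the members themselves, rows with a neighbouring ID number were looked at as well. Of the 188 rows next to a member in number that were not members, 118 averaged 1 FPKM or more. In the limma fit 25 of these 118 were called higher (21.2%) and 9 lower (7.63%). Of the 12912 other rows tested, 8.43% were called higher and 9.19% lower, and over all rows tested the shares were 9.32% and 9.1%. The median log2 change was 0.13 for the 118 rows and -0.01 for the others.

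The strongest of these neighbours was Minc00886, next to the member Minc00887. It was at 481, 316 and 438 FPKM in early and at 1684, 1507 and 1277 FPKM in middle replicates 1 to 3, so that log2(FPKM + 1) rose by 1.87 (standard error 0.18; limma, Benjamini-Hochberg adjusted p = 0.000551). The member itself was far lower, at 1.51, 0.881 and 1.84 FPKM in early and at 25.7, 22.0 and 20.3 FPKM in middle replicates 1 to 3.

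In 8 members (7.14%) an ID neighbour stood at 1000 FPKM or above in the middle mean, against 1.08% of the other rows tested. For Minc05757 and Minc03286 that neighbour was itself a member, Minc05758 and Minc03287. The rule used the middle values, so the shares are a description. The rows named next to abundant neighbours were picked after their values were seen. Minc03867 lay between Minc03866 and Minc03868, whose middle means were 9604 and 1940 FPKM. Minc03867 was at 2.46, 0.252 and 2.10 FPKM in early and at 25.1, 46.7 and 15.4 FPKM in middle replicates 1 to 3. Its ratio of 11.6 exceeded those of its neighbours, which were 2.38 and 2.34.

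Minc08299 and Minc08301 lay on either side of Minc08300, which was at 1222, 550 and 1072 FPKM in early and at 2186, 2574 and 2193 FPKM in middle replicates 1 to 3. Minc08299 was at 24.0, 18.2 and 5.72 FPKM and Minc08301 at 24.3, 38.05 and 10.004 FPKM in those middle replicates. Their ratios were 15.4 and 7.77 and that of Minc08300 was 2.44, an order that the rule again sets. Minc08299 was highest in middle replicate 1, whereas Minc08301 and Minc08300 were both highest in middle replicate 2, as were Minc03867, Minc03866 and Minc03868. Minc02312 was also highest there, while its neighbour Minc02311, at 8970 FPKM in the middle mean, had its lowest middle value, 7434 FPKM, in that library. Whether any reads of these members came from their abundant neighbours was not tested.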

How the data were processed

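The authors deposited FPKM values for each of 6 libraries, per the file header. CASAVA and TopHat2 are named, per the submitters' processing notes; versions, read counter, genome build and annotation: not given in the sources used here. A further 16 columns without a name match no sample and were not used. Whole reads and lengths were recovered from the FPKM steps for all 17197 rows above 0 (tolerance 0.001). Lengths were searched for whole counts, so this closeness is no test, and rows whose counts share a factor come out too short. On 3832 simulated rows 98.4% of the counts were right. All simulated lengths were multiples of 3, against 76.0% of the recovered lengths, so this rate need not hold for the real rows.

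Rows that averaged 1 FPKM or more were tested on log2(FPKM + 1), which understates changes of low rows, by limma 3.58.1 in R 4.3.3 (stage as the sole term, intensity trend, two-sided, Benjamini-Hochberg over all rows, threshold 0.05). Tested on simulated data for this comparison, on 13012 rows, it recovered 93.9% of 4-fold, 77.6% of 2-fold and 29.85% of 1.5-fold changes. There were 7 false calls among 141. The simulated replicates varied by 10% beyond counting noise. The members' median coefficient of variation in middle J2 was 29.3%, so these rates need not hold for the real libraries. Tables were made with Python 3.11.15, pandas 2.3.3 and scipy 1.17.1. No replicate pair differed by counting noise alone (chi-square per degree of freedom 3.70 to 14.4). Alternatives were other pseudocounts, filters and scalings, a replicate block, voom on the recovered reads, and leaving out each library.

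Rows named by ID were the members of highest level, highest ratio, lowest early level, and lowest and highest spread. The rows at the threshold and the longest run of IDs were named too. Others, among them the ID neighbours of members, were chosen later. The members, lists and rules were chosen with earlier results of these data known. Gene list tests were left out, since the IDs are paired with no names.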

Additional observations from a re-analysis of the deposited data

How the results depend on the processing

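The number of members depends on the 1 FPKM added to both means. With 0.1 FPKM added 224 rows met the rule and with 0.01 FPKM 276, in each case with all 112 members among them. That all members stayed was fixed in advance, since a smaller addition can only raise the ratio of a row with the higher middle mean. A ratio of at least 3 gave 177 rows and of at least 8 gave 44. Rescaling to a common FPKM sum gave 106, all of them members, and leaving out a library gave 108 to 141. Between 102 and 112 members were called by limma with a library left out, against 671 to 1143 of all rows. Fewer libraries enter those fits by construction. Without the 5 members of highest middle level the members' share was 0.192% in early and 1.44% in middle J2. With a replicate block 111 members and 1120 of all rows were called higher. Between libraries of the same number, deviations from the stage means had correlations of 0.005, 0.089 and 0.120, so the numbers are not taken to pair the samples. Early replicates 2 and 3 correlated best with the middle library of the same number, although early replicate 2 reached 0.077 with middle replicate 1. Early replicate 1 correlated best with middle replicate 3 (0.057). The 26 named members kept their direction in all 207 alternatives run, which were other pseudocounts or a library left out. The rule fixed this in advance, as it put every middle library above every early library. In 16 of the 207 the limma call no longer passed the threshold, with adjusted p up to 0.124. The 11 members low in early replicate 2 became 10 after rescaling to a common sum, an alternative chosen after seeing the data. Depth limits the 33 members with fewer than 10 early reads.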
